A study of Homo sapiens with 27 samples.

Results

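ZBTB20 is a long gene on human chromosome 3, transcribed from the minus strand, and the insertions of piggyBac-type transposons listed inside it are described here across the 9 transposase groups of the series. The members were all insertion positions at chr3:114314500-115147288 (GRCh38), the annotated extent of the gene. The 27 libraries listed 2965 distinct positions there, of 2955325 over the whole genome. A flank of the same length, 832789 bases, was taken on each side, and the flanks held 1147 positions at the lower and 1089 at the higher coordinates. The gene was chosen by its number of listed positions in these libraries, so its counts, ranks and ratio to the flanks are given as a description with no test. The nearest position inside the lower bound was 109 bases from it and the nearest outside 510 bases. At the upper bound these distances were 794 and 599 bases.

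ZBTB20 encodes a transcription factor of the BTB zinc-finger family, whose members bind DNA through zinc fingers and recruit corepressors through the BTB domain. In liver it is known as a repressor of the alpha-fetoprotein gene. piggyBac is a DNA transposon that moves by cut and paste and inserts at the tetranucleotide TTAA. A self-reporting transposon is transcribed outward from its own promoter into the neighbouring genomic DNA, so that insertions can be read from RNA.

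All libraries came from HCT116, an established colorectal carcinoma cell line, transfected with a self-reporting transposon and selected in puromycin at 3 µg/ml for 2 weeks. The wild-type transposon was combined with piggyBac transposase (WT_PB), with hyperactive piggyBac (WT_hyPB), a form known for raised activity, with re-engineered piggyBac (WT_rePB) or with both changes in re-engineered hyperactive piggyBac (WT_rehyPB). In 2 further groups a short transposon met wild-type piggyBac (short_PB) or hyperactive piggyBac (short_hyPB), and in 2 more a symmetric transposon met re-engineered piggyBac (sym_rePB) or its re-engineered hyperactive form (sym_rehyPB). The last group was the wild-type piggyBat system (WT_PBat), whose transposase comes from a bat. The study's title names phosphorylation of the transposase N-terminus and the asymmetry of the transposon ends, and the labels give no further definition of re-engineered, short or symmetric. Each group had 3 libraries. The labels do not say whether these were separate cultures, so p-values measure only the spread between these libraries, which may be technical. The lists hold no expression values, so the cell line could not be checked against marker genes.

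File totals, read as the number of mapped reads, lay between 8118085 and 12051190 in the 12 libraries of the first 4 groups (the deep libraries) and between 142666 and 256608 in the 15 others (the shallow libraries). Depth and transposon type cannot be told apart from these totals, and the shallow groups are described with no test. Replicates 1 and 2 of WT_hyPB stood apart as a linked pair. They shared 565 ZBTB20 positions, 77.8% and 79.1% of their lists, while each shared between 39.5% and 42.6% with replicate 3. The WT_PBat replicates 1 and 3 were linked too, with 52.5% and 42.5% of their genome-wide positions in common. Linked pairs were left out of the measure of recurrence between replicates.

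Upstream sequences of 3 of the 8 annotated ZBTB20 starts are shown because they hold the most frequently used insertion site among the start windows, a set of sites used on 1 strand only, and no target at all. Starts are numbered along the direction of transcription from the outermost one, at 115147288. The sequences are the 250 bases before the start, from RefSeq (GRCh38.p14), minus strand, 5′ to 3′, with every TTAA in capitals. They lie at chr3:114759108-114759357 (start 4), chr3:114900626-114900875 (start 3) and chr3:115147289-115147538 (start 1).
ZBTB20 start 4: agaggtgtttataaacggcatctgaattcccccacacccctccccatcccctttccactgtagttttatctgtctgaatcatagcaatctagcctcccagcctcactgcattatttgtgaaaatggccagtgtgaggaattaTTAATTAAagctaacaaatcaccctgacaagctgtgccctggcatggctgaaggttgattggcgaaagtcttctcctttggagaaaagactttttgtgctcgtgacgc
ZBTB20 start 3: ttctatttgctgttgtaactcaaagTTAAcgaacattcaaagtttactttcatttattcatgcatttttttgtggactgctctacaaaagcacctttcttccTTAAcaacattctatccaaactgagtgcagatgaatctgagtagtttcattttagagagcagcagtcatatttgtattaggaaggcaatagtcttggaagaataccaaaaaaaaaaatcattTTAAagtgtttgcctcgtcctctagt
ZBTB20 start 1: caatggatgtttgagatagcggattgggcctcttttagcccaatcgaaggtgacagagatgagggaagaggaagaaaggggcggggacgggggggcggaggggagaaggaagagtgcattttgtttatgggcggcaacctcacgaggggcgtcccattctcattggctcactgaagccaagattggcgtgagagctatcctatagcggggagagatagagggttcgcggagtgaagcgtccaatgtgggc

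TTAA reads the same on both strands, and start 4 holds a tandem pair of them. Of 34943 start windows of 300 bases in the RefSeq table (250 before to 50 after the start), 46.1% held a TTAA. Of the 8 ZBTB20 windows, 6 held one or more, 14 sites in all. Over all start windows of the genome, between 96.2% and 98.6% of the insertion positions of a group lay on a TTAA. The deep libraries listed an insertion at 12 of the 14 TTAA sites of ZBTB20 (85.7%), and at 9133 of 30509 TTAA sites in all windows (29.9%). The gene had been chosen for its many positions, so nothing is read from that difference.

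In start 4, the TTAA at 114759212-114759215, 108 bases before the start, was listed in all 12 deep libraries. It gave 5 plus-strand and 12 minus-strand peaks with heights between 8 and 86, where height is the highest read coverage in a peak. The adjoining TTAA at 114759208-114759211 was listed in 5 libraries, 2 of WT_PB and 3 of WT_hyPB, on the plus strand each time. In start 3, the 3 TTAA sites were listed in 7, 9 and 2 deep libraries, and all 18 peaks lay on the plus strand. The start 1 sequence has no TTAA, and no insertion was listed in that window. The 4 sites of start 2 gave 9 peaks, all on the plus strand too. Start 7 had its single TTAA 12 bases inside the transcribed side, and 9 deep libraries listed it with 5 plus-strand and 9 minus-strand peaks. Off TTAA, 4 positions were listed in the ZBTB20 windows. One of them, a CTAA at 114624996 beside start 6, recurred in 5 libraries of WT_PB, WT_hyPB and WT_rehyPB at heights between 11 and 25.

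Parental here means without re-engineering, so that WT_PB and WT_hyPB are the parental groups. Within the deep set, both parental groups had more ZBTB20 positions for their library size than both re-engineered groups. WT_PB listed 726, 603 and 705 positions in replicates 1 to 3, and WT_hyPB listed 726, 714 and 750. WT_rePB listed 629, 683 and 662, from libraries that held the most positions of all groups. WT_rehyPB listed 462, 469 and 522. Per 10000 distinct positions of the library, the levels were 16.9 ± 0.42 for WT_PB, 17.2 ± 0.57 for WT_hyPB, 11.9 ± 0.39 for WT_rePB and 12.9 ± 0.77 for WT_rehyPB (SD, n = 3 each). The 6 libraries with parental transposases, at 16.5 or higher, did not overlap the 6 with re-engineered ones, at 13.7 or lower. WT_PB and WT_hyPB did not differ beyond their spread.

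The flanks did not follow this order. Their mean level per 10000 was 3.26 ± 0.24 for WT_PB, 3.29 ± 0.18 for WT_hyPB, 3.57 ± 0.17 for WT_rePB and 3.46 ± 0.098 for WT_rehyPB (SD, n = 3 each). The ratio of gene to flank was thus 5.20 ± 0.31, 5.24 ± 0.12, 3.34 ± 0.24 and 3.74 ± 0.28 in the same order (SD, n = 3 each). By its number of positions ZBTB20 had rank 2 among 19974 protein-coding genes in WT_PB, WT_hyPB and WT_rehyPB and rank 3 in WT_rePB. A rank by number favours long genes. Among the 1396 coding genes of at least 200 kb it ranked 11, 13, 17 and 16 by positions per base in WT_PB, WT_hyPB, WT_rePB and WT_rehyPB. Of the 114 coding genes that are longer, RAD51B had the highest WT_PB level, 10.8 per 10000, and the median was 1.54.

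The shallow libraries listed between 1 and 12 ZBTB20 positions each, 93 in sum. They were 10, 9 and 12 for short_PB, 5, 7 and 9 for short_hyPB, 3, 4 and 1 for sym_rePB, 4, 5 and 4 for sym_rehyPB and 8, 6 and 6 for WT_PBat. Per 10000 positions this was 11.3 ± 1.57 for short_PB, 9.62 ± 2.68 for short_hyPB, 8.91 ± 5.53 for sym_rePB, 10.7 ± 2.25 for sym_rehyPB and 8.86 ± 2.19 for WT_PBat (SD, n = 3 each). These 5 groups overlapped each other, and with so few positions no neighbours in this order differed beyond their spread. The flanks of the shallow libraries held 23 and 18 positions in sum. ZBTB20 ranked 13 by number of positions in short_PB, 24 for short_hyPB, 36 for sym_rePB, 26 for sym_rehyPB and 54 for WT_PBat.

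**Figure D1:**
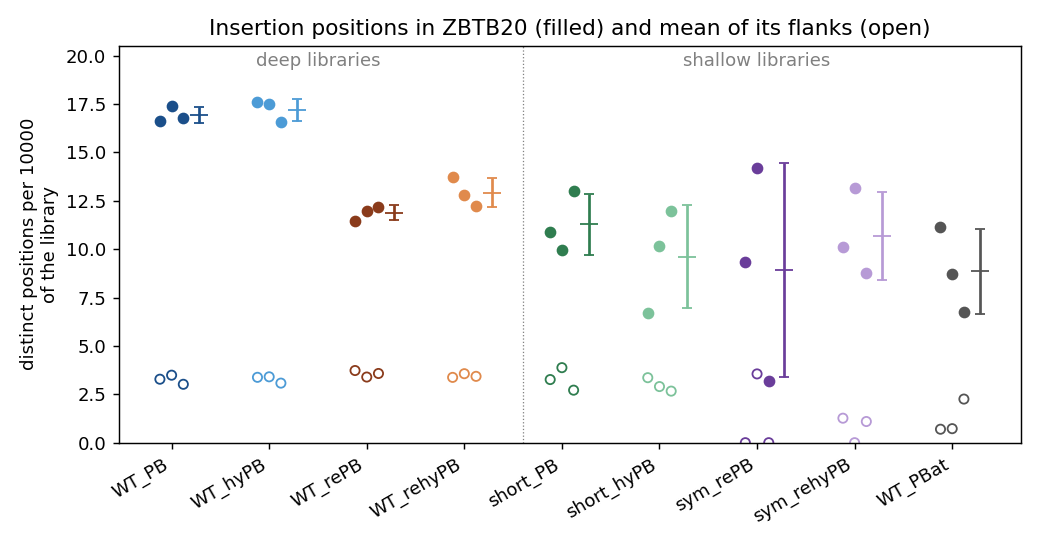
Distinct positions per 10000 of the library (vertical axis) in ZBTB20 (filled points) and in the mean of its flanks (open points), for each library of the 9 groups, with the mean and SD of the 3 libraries beside the points. WT_PB and WT_hyPB lie at 16.5 or higher, both re-engineered deep groups between 11.4 and 13.7, and the flanks of all deep libraries under 3.73.

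The protein-coding genes beside ZBTB20 were sparser in insertions. Over the 12 deep libraries ZBTB20 had a mean of 76.6 positions per 100 kb, and the 14 protein-coding genes that overlap the flanks had between 6.66 and 44.2. The highest was NAA50, an N-terminal acetyltransferase gene, with 44.2, and the lowest TIGIT, an immune checkpoint receptor gene next to the 3′ end of ZBTB20, with 6.66. ATP6V1A, a subunit of the proton-pumping vacuolar ATPase, had 22.6, GAP43, a neuronal growth protein gene, 22.8, QTRT2, of tRNA queuosine synthesis, 21.6, and SIDT1, a transmembrane protein gene of RNA transport, 20.005. GRAMD1C, a lipid transfer protein gene, had 17.7, DRD3, a dopamine receptor gene, 16.4, ZDHHC23, a palmitoyltransferase gene, 15.03, and ZNF80, a zinc-finger gene, 14.1. CCDC191 had 11.4, SPICE1, of spindle and centriole function, 10.1, USF3 10.02 and LSAMP, a long neuronal adhesion gene across the end of the upper flank, 9.63. One short noncoding gene of the upper flank, LOC124909412 at chr3:115788634-115792503, was denser than ZBTB20, with 249.8 positions per 100 kb and between 5 and 12 positions in each deep library. It is named for this value, after the data were seen. Toward its own ends ZBTB20 was sparse: of the 20 equal sections of the gene the outermost ones held 2.29% (start side) and 1.78% (3′ side) of its positions in the deep libraries. This was not particular to the ends: sections 4 to 6 from the outermost start held 1.03%, 1.35% and 1.73%.

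Other genes listed as BTB zinc-finger genes did not share this level. The list was made by symbol: names starting with ZBTB, plus BCL6, BCL6B, HIC1, HIC2 and PATZ1. Protein domains were not checked, so it can hold other genes and miss family members with other names. It had 47 members, of which 28 had a position in every deep library. ZBTB7C came next in number with 1.42 ± 0.08 per 10000 for WT_PB (SD, n = 3), followed by ZBTB38, which binds methylated DNA, with 1.20 ± 0.11, ZBTB40 with 0.472, ZBTB10 with 0.457 and ZBTB44 with 0.437. All other members of the list together came to 8.99 per 10000 for WT_PB, less than ZBTB20 alone. Per base ZBTB20 ranked 1 in the list, with 81.4 positions per 100 kb in WT_PB. The next members by density were ZBTB1 with 52.3 and ZBTB2 with 52.2, while ZBTB10 had 45.1 and ZBTB38 had 38.2. Over the 9 group means, the gene whose level moved most like that of ZBTB20 was RAD51B, a recombination repair gene on chromosome 14, with a Pearson r of 0.85 on log2(level + 0.5) among 101 genes with enough positions. It was followed by ANK2, a membrane scaffold gene (0.36), DDX10, an RNA helicase gene (0.12), PRKACB, a catalytic subunit of protein kinase A (0.07), and ZNF608, a zinc-finger gene (-0.11), so that only RAD51B came near. The 9 points share their libraries and fall into a deep and a shallow set, and in the deep set RAD51B did not share the fall from parental to re-engineered groups. Its levels there were 10.8 for WT_PB, 11.5 for WT_hyPB, 11.0 for WT_rePB and 10.9 for WT_rehyPB.

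Positions were spread unevenly along the gene in each deep group. The gene was divided into 20 sections of 41.6 kb from the outermost start. The section from 375 to 416 kb, chr3:114730894-114772532, holds starts 4 and 5 and had the most, 933 of the 7651 positions summed over the deep libraries (12.2%). Its share was 14.1% ± 0.89 of a library's ZBTB20 positions in WT_PB, 12.3% ± 0.28 for WT_hyPB, 10.7% ± 0.26 for WT_rePB and 11.6% ± 1.40 for WT_rehyPB (SD, n = 3 each). The section at 500 to 541 kb, with starts 6 and 7, followed with 828 positions, and the section before it with 771. Sections 4 to 6, from 125 to 250 kb, held between 79 and 132 each. A section in even proportion would hold 5.0%.

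In windows of 10 kb the extremes were wider. The median of the 84 windows was 33 distinct positions over the series. The window chr3:114640001-114650000 held 97, with 42 to 51 per library in WT_PB, 49 or 50 for WT_hyPB, 37 to 41 for WT_rePB and 30 to 38 for WT_rehyPB. It contains no annotated start, and the nearest is 15.1 kb away. The second, chr3:114750001-114760000, held 88 and contains start 4. The third, chr3:114650001-114660000, adjoins the first and held 87. The emptiest window, chr3:114920001-114930000, held 6. The antisense RNA genes inside ZBTB20 did not mark dense places. ZBTB20-AS5 covered 256 distinct positions, 3.85 per kb, against 3.56 per kb over the whole gene, and ZBTB20-AS1 109, which is 2.93 per kb. ZBTB20-AS3 and ZBTB20-AS4 covered 11 and 10 positions, and no position fell in MIR568 or MIR4796. Exons were not annotated in the tables used here.

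**Figure D2:**
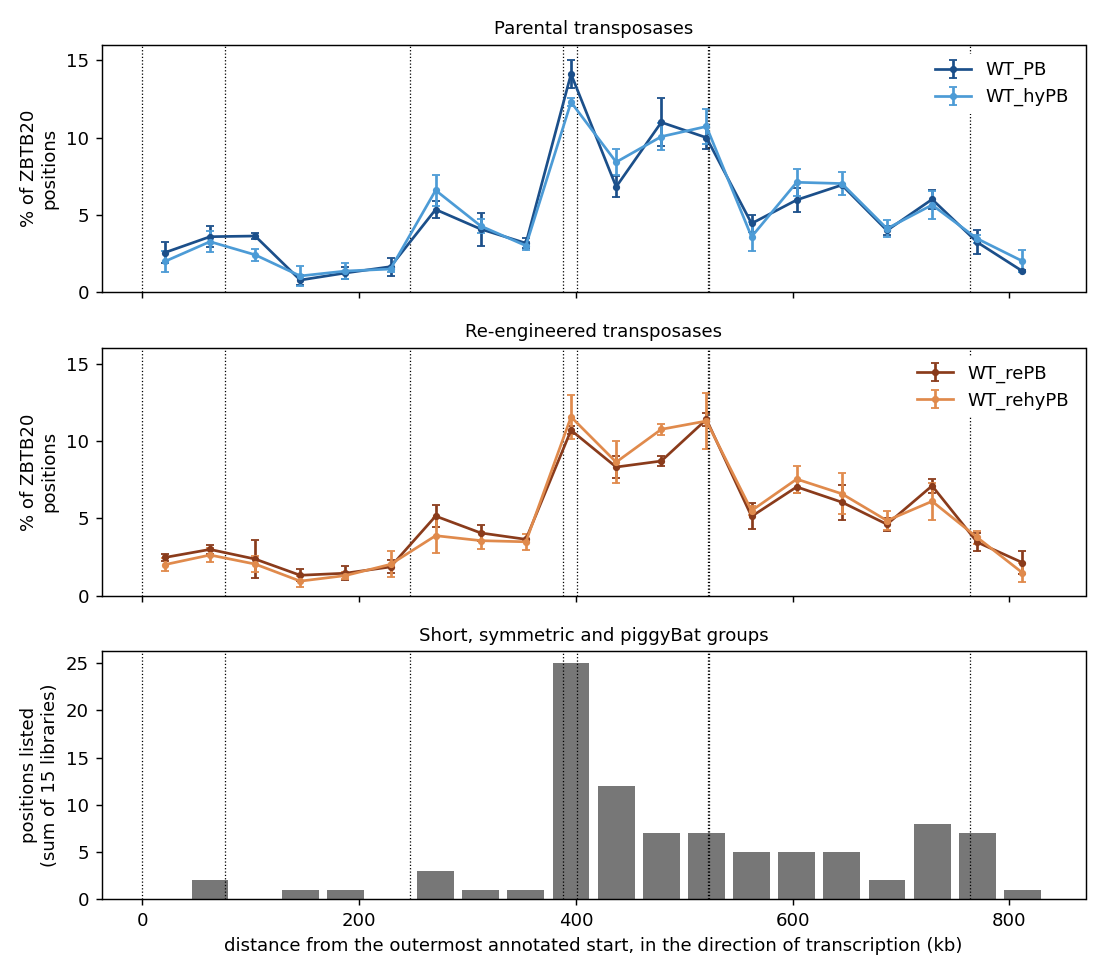
Share of a library's ZBTB20 positions in each of 20 equal sections, against distance from the outermost start (kb), as the mean and SD of 3 libraries for the 4 deep groups (upper and middle panels), and positions summed over the 15 shallow libraries (lower panel); dotted lines mark the 8 annotated starts. The section at starts 4 and 5 has the highest share in WT_PB, at 14.1%, and holds 25 of the 93 shallow positions.

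On average the start side of the gene took a smaller share with re-engineering and with the hyperactive change, but neither effect held in every setting. This side begins with the section of starts 4 and 5. That section alone had 14.1% for WT_PB, 12.3% for WT_hyPB, 10.7% for WT_rePB and 11.6% for WT_rehyPB. The share of ZBTB20 positions between the midpoint and the outermost start (114730894 and higher) was 39.1%, 39.3% and 42.3% in the WT_PB replicates and 38.8%, 38.2% and 36.4% for WT_hyPB. It was 34.02%, 34.8% and 39.3% for WT_rePB and 33.5%, 34.1% and 32.8% for WT_rehyPB. WT_rehyPB lay below both parental groups in all 3 libraries, while replicate 3 of WT_rePB overlapped them. The re-engineered forms differed by -4.18 points from WT_PB and by -4.35 points from WT_hyPB, with a mean effect of -4.27 points (two-sided exact permutation within 2 pairs of groups, p = 0.01, adjusted over 8 effect tests p = 0.016). The hyperactive forms differed by -2.49 points on average (exact permutation p = 0.01, adjusted p = 0.016), from -2.40 in the parental and -2.57 in the re-engineered background. The smallest p of this design is 0.005. With a minimum height of 10 the hyperactive effect missed the threshold (-2.49, exact permutation, adjusted p = 0.09). Without replicate 3 of each group it was -0.64 points, and with the third of the gene nearest the outermost start in place of the midpoint both effects missed the threshold (-1.56, adjusted p = 0.07, and -1.95, adjusted p = 0.08, by the same exact permutation). With replicates 1 and 2 of WT_hyPB averaged to 1 library, the effects were -2.67 and -4.09 points (adjusted p = 0.032 and 0.02 by exact permutation).

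Density rose near the annotated starts when all 8 were pooled. Among 10-kb windows with a start, only those at starts 4 to 7 stood well above the median of 33 distinct positions. They held 88 with start 4, 68 with start 5 and 70 with starts 6 and 7. The windows of start 2, start 3 and start 8 held 34, 25 and 33, and that of start 1, which reaches past the gene, 26. Within 1 kb of a start the libraries of WT_PB had 2.57 ± 0.22 positions per kb, those of WT_hyPB 2.74 ± 0.23, of WT_rePB 1.94 ± 0.30 and of WT_rehyPB 1.67 ± 0.22 (SD, n = 3 each). More than 50 kb from any start the values were 0.611 ± 0.07, 0.702 ± 0.05, 0.648 ± 0.04 and 0.481 ± 0.05 in the same order (SD, n = 3 each). WT_PB had 2.59 ± 0.55 positions per kb at 1 to 2 kb, 1.44 ± 0.20 at 2 to 5 kb and 0.797 ± 0.06 at 5 to 10 kb (SD, n = 3 each). The stretches within 5 kb of a start make up 7.89% of the gene and held 18.5% ± 1.70 of the positions in WT_PB, 17.2% ± 0.89 for WT_hyPB, 14.8% ± 0.72 for WT_rePB and 15.3% ± 2.52 for WT_rehyPB (SD, n = 3 each). WT_PB and WT_rePB differed by more than their spread in these shares, while WT_rehyPB overlapped both parental groups. These values were not tested.

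**Figure D3:**
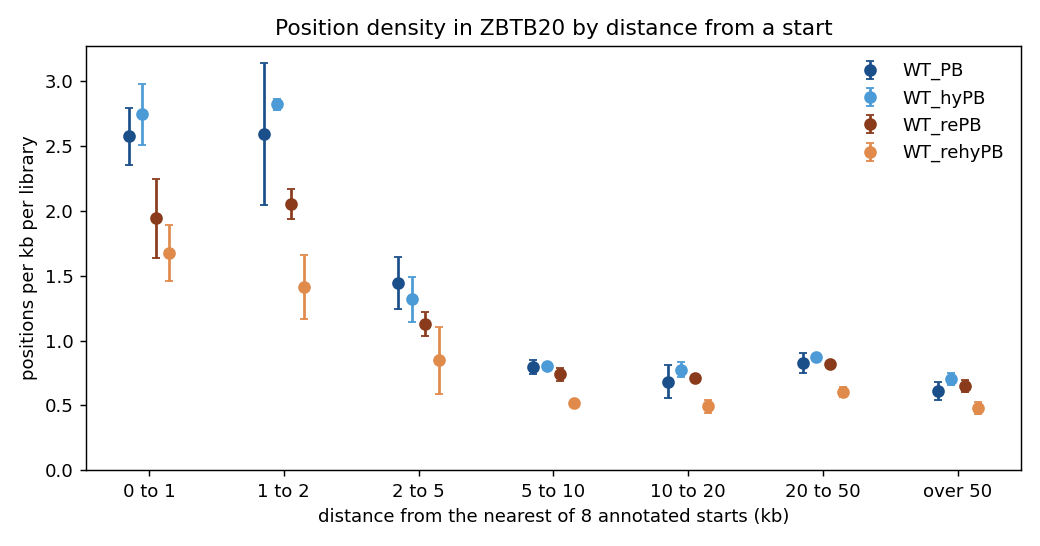
Positions per kb of ZBTB20 sequence and library (vertical axis) by distance from the nearest of the 8 annotated starts (kb), as the mean and SD of 3 libraries of each deep group. With the 8 starts pooled, density is highest within 2 kb of a start, at 2.57 for WT_PB within 1 kb, and lowest over 50 kb away, at 0.611.

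In the shallow libraries, 35 of the 93 positions (37.6%) lay within 5 kb of a start, against 16.6% in the deep libraries. The section with starts 4 and 5 held 25 of them. In WT_PBat, 17 of 20 positions lay on the far side of the midpoint from the outermost start, and no WT_PBat position was within 1 kb of a start. The shallow and deep libraries differ in transposon type as well as depth, and these cannot be told apart. Nearness to a start moved with recurrence. In the deep libraries the share of distinct positions within 5 kb of a start was 8.53% for positions listed in 1 deep library and 27.2% for those listed in 10 to 12. The part of depth in the difference between shallow and deep libraries was not tested.

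Orientation was not even inside ZBTB20. A plus-strand peak runs against the transcription of the gene. Of 8329 insertions (a position and a strand) summed over the deep libraries, 54.9% were on the plus strand. The shares were 55.6%, 55.3% and 51.5% for WT_PB, 54.8%, 54.3% and 54.0% for WT_hyPB, 57.8%, 54.7% and 57.4% for WT_rePB and 54.5%, 54.7% and 54.5% for WT_rehyPB. Each of the 12 libraries was above its own genome outside ZBTB20, where the share ran from 49.7% to 50.03%, and above its flanks, where it ran from 45.1% to 49.8%. The mean difference was 5.11 points ± 1.64 from the rest of the genome and 7.04 points ± 2.33 from the flanks (SD, n = 12). Both had an exact sign-flip permutation p of 0.000488, two-sided and the smallest possible, and an adjusted p of 0.000732 over 6 tests. The genome outside ZBTB20 pools genes of both strands, whose shares lean opposite ways. Many ZBTB20 positions also recur between libraries. These p-values therefore do not mark the lean as particular to this gene.

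Set against genes of the same strand, ZBTB20 stood on the other side. In other minus-strand protein-coding genes 63.9% of the insertions were on the plus strand, between 61.6% and 66.2% in the deep libraries, and in plus-strand genes 36.7%. ZBTB20 was lower than the other minus-strand genes by a mean of -8.996 ± 2.04 points (SD, n = 12) in 12 of 12 libraries (two-sided exact sign-flip permutation p = 0.000488), a comparison added after the data were seen. Among 326 coding genes with at least 1000 insertions in the deep libraries, the share against the gene's direction had a median of 59.7%, and 246 genes were above ZBTB20. Of these genes 95.1% had over 50% of insertions against their own direction. Neither transposase change moved the share in ZBTB20 detectably. The hyperactive effect was -0.95 points (exact permutation p = 0.25, adjusted p = 0.255) and the re-engineering effect 1.36 points (exact permutation p = 0.195, adjusted p = 0.255).

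Along the gene, the plus-strand share of the deep libraries ran from 43.6% in section 15 to 82.1% in section 6, which holds start 3 and only 134 insertions. Section 6 was high in each deep group, at 90.9% of 33 insertions in WT_PB, 72.7% of 33 for WT_hyPB, 84.2% of 38 for WT_rePB and 80.0% of 30 for WT_rehyPB. Part of it is the set of plus-strand peaks at the start 3 targets shown above. In the shallow libraries 60 of 93 insertions were on the plus strand, 64.5% with a 95% Wilson interval from 54.4% to 73.5%. That interval covers counting error only, and some positions recur between these libraries. Both strands were occupied at between 6.06% and 10.9% of a deep library's ZBTB20 positions, against 3.66% to 6.71% elsewhere in the genome.

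**Figure D4:**
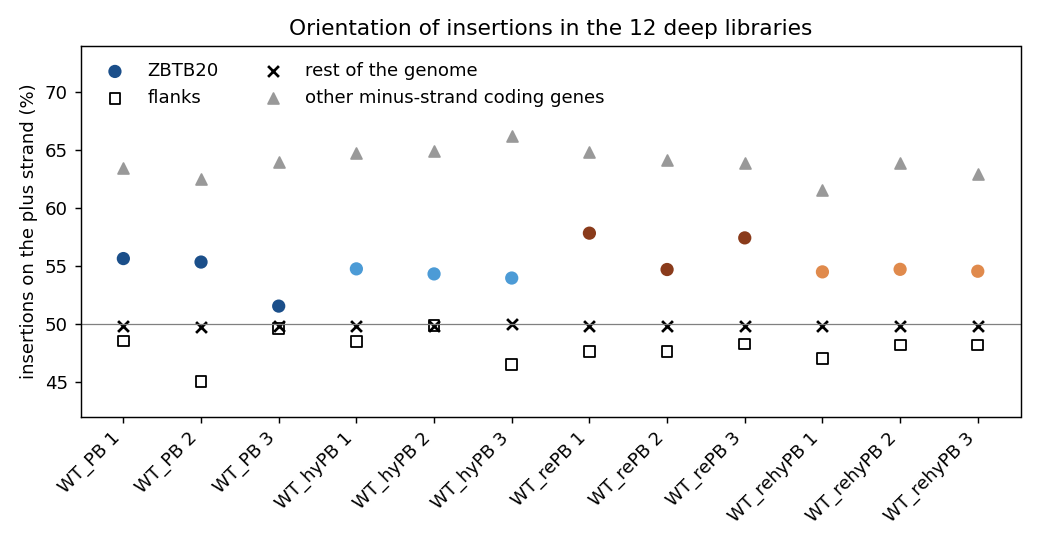
Share of insertions on the plus strand (%) in each of the 12 deep libraries, for ZBTB20 (circles), its flanks (squares), the genome outside ZBTB20 (crosses) and other minus-strand protein-coding genes (triangles); the line marks 50%. ZBTB20 lies above the genome and the flanks and below the other minus-strand genes in all 12 libraries.

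Peaks in ZBTB20 were about as high as elsewhere in the same library. The median height per library was between 10 and 14 in the deep set and between 5 and 8.5 in the shallow set, and no peak under 5 was listed. On the log2 scale, the mean height differed from that of the rest of the genome by 0.013 ± 0.051 (SD, n = 12), with 7 of 12 libraries higher (exact sign-flip permutation p = 0.387, adjusted p = 0.387). Against the flanks the heights were higher by 0.080 ± 0.045 in 11 of 12 libraries (exact sign-flip permutation p = 0.000977, adjusted p = 0.00117). Height moved with recurrence in ZBTB20: the median was 8 for positions listed in 1 deep library and 21 for those in 10 to 12. Recurrence moves with the number of positions, so comparisons of height are not fully independent of the choice of the gene. The parental and re-engineered groups parted in this measure. The mean log2 height in ZBTB20 minus that of the rest of the genome was 0.052 ± 0.006 for WT_PB, 0.063 ± 0.003 for WT_hyPB, -0.011 ± 0.020 for WT_rePB and -0.053 ± 0.026 for WT_rehyPB (SD, n = 3 each). Re-engineering changed it by -0.089, with no overlap between groups in either background (exact permutation p = 0.005 is the smallest that can occur here, adjusted p = 0.016). The hyperactive effect on height was -0.016 (exact permutation p = 0.255, adjusted p = 0.255).

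The highest ZBTB20 peak of WT_PB, with a height of 216 in replicate 3, was at 114706906, where the other replicates had 124 and 158. In WT_hyPB it was 204 at 114745869, 113 bases inside start 5, with 146 and 149 in the other replicates. WT_rePB had its highest peak, 220, at 114549016 and WT_rehyPB its own, 164, at 115064766. The other replicate of WT_rehyPB that listed this site had a height of 5, so peak heights at 1 site were not always alike between replicates. The shallow groups reached 25 for short_PB, 10 for short_hyPB, 11 for sym_rePB, 10 for sym_rehyPB and 16 for WT_PBat, and sym_rePB and sym_rehyPB had their highest peak at the same site, 114747207.

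ZBTB20 positions recurred in larger shares than positions elsewhere. In the deep libraries, 33.6% of the positions were listed again in another replicate of the group, against 20.7% of the positions elsewhere and 15.7% in the flanks. The difference from the rest of the genome was 12.8 points ± 3.02 and from the flanks 17.8 points ± 4.68 (SD, n = 12), in 12 of 12 libraries each. The density of positions, for which the gene was chosen, moves with recurrence here: the deep libraries had a mean of 76.6 positions per 100 kb in ZBTB20, above every coding gene over the flanks. Recurrence is therefore not independent of that choice, and these differences are a description with no test.

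The groups differed in the size of this difference. It was 17.1 points ± 0.81 for WT_PB, 13.2 ± 0.95 for WT_hyPB, 11.4 ± 0.63 for WT_rePB and 9.61 ± 1.39 for WT_rehyPB (SD, n = 3 each). Re-engineering changed it by -4.67 points (exact permutation p = 0.005, adjusted p = 0.016) and the hyperactive forms by -2.81 points (exact permutation p = 0.01, adjusted p = 0.016). The level of ZBTB20 positions, which moves with recurrence, differed between groups too. Per 10000 it was 16.9 for WT_PB, 17.2 for WT_hyPB, 11.9 for WT_rePB and 12.9 for WT_rehyPB. These tests are therefore not independent of the choice of the gene by its positions, and nothing is concluded from them. Recurrence in ZBTB20 itself was 38.2% for WT_PB and 41.1% for WT_hyPB, and elsewhere in the genome 21.1% and 27.9%, so that here the difference shrank while both shares were higher. In WT_rePB and WT_rehyPB the shares were 29.9% and 25.0% in the gene and 18.6% and 15.4% elsewhere. The hyperactive effect missed the threshold with a minimum height of 10 (-1.07, exact permutation, adjusted p = 0.274), and it was -1.71 points after thinning to the smallest file total and -4.52 with the linked pair kept. Both effects depended on the scale. As a ratio, recurrence in ZBTB20 over recurrence elsewhere was 1.81 ± 0.03 for WT_PB, 1.48 ± 0.05 for WT_hyPB, 1.61 ± 0.04 for WT_rePB and 1.63 ± 0.14 for WT_rehyPB (SD, n = 3 each). On log2 of that ratio, an alternative added after the data were seen, the re-engineering effect was -0.013 (exact permutation, adjusted p = 0.825) and the hyperactive effect -0.14 (exact permutation, adjusted p = 0.12). With the linked WT_hyPB pair kept in the measure, re-engineering gave -2.96 points (exact permutation, adjusted p = 0.096). No test of the difference between backgrounds passed the threshold for orientation, start-side share, height or recurrence (smallest adjusted p = 0.12, for height, by exact permutation over 4 tests).

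Positions were shared across groups as well as within them. Of the positions of a WT_PB library, 38.2% on average were listed in another WT_PB library, 39.6% in a WT_hyPB library, 31.4% in a WT_rePB and 25.4% in a WT_rehyPB library. A WT_hyPB library shared 40.8% within its group, 36.8% with WT_PB, 30.9% with WT_rePB and 25.5% with WT_rehyPB. For WT_rePB the shares were 29.9% within the group, 32.4% with WT_PB, 34.3% with WT_hyPB and 23.1% with WT_rehyPB. A WT_rehyPB library shared 25.0% within the group, 35.4% with WT_PB, 38.4% with WT_hyPB and 31.4% with WT_rePB. In each group the lowest share was with WT_rehyPB libraries, which list the fewest ZBTB20 positions. A longer list offers more matches, and these shares were not corrected for it.

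Over the 9 groups, 1592 of the 2965 positions (53.7%) were listed in 1 group, 666 in 2, 393 in 3 and 287 in 4. Another 19 were listed in 5 groups, 4 in 6, 2 in 7 and 2 in 8, and none in all 9. In the flanks 1683 of 2236 (75.3%) were listed in 1 group. All 4 deep groups listed 298 of the 2957 ZBTB20 positions seen in a deep library (10.1%) and 50 of 2230 in the flanks (2.24%). All 12 deep libraries listed 13 ZBTB20 positions and 3 in the flanks. These shares over groups are not given for the whole genome. The flanks recurred less than the genome between replicates, at 15.7% against 20.7%, which widens the contrast. Recurrence also moves with the number of positions by which the gene was chosen, so nothing is read from these differences.

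**Figure D5:**
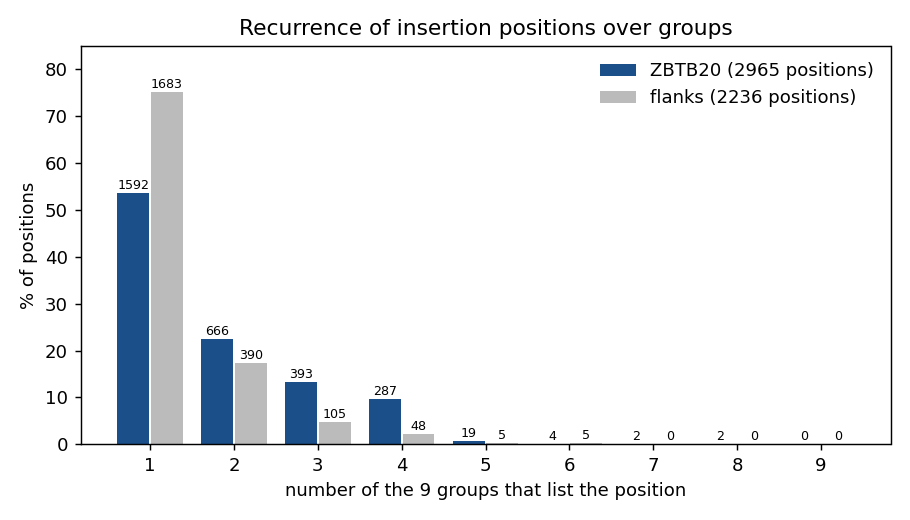
Share of distinct positions (%) listed in 1 to 9 of the 9 groups, for ZBTB20 (2965 positions) and its flanks (2236 positions), with the number of positions on each bar. In 1 group only are 53.7% of the ZBTB20 and 75.3% of the flank positions; no position is in all 9 groups.

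The positions seen in most libraries were 114412834, 114706906 and 114758799, each in 15 of 27. The first was in 7 groups, including short_PB, sym_rePB and WT_PBat, and lies before start 8. The second was in 6 groups and gave the highest WT_PB peak. The third lies 308 bases inside start 4 and was in 8 groups, all but WT_PBat. Its deep peaks had heights from 7 to 88, and its 4 shallow peaks were all on the plus strand. At 114707405, listed in 12 deep and 2 shallow libraries, all 14 peaks were on the minus strand. The position 114747207, just before start 5, was in 14 libraries of 7 groups, and its 4 shallow peaks were also all on the plus strand. Over all libraries the other sites named here had peaks on both strands. There were 13 on the plus and 7 on the minus strand at 114412834, 4 and 11 at 114706906, 12 and 8 at 114758799, and 10 and 8 at 114747207. At 114706906 the strands were split by library set: the 4 plus-strand peaks were all shallow and the 11 minus-strand peaks all deep.

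Recurrent positions had higher peaks. The median height in the deep libraries was 8 for positions listed in 1 of them, 10 for 2 or 3, 11 for 4 to 6, 14 for 7 to 9 and 21 for 10 to 12. Most positions of the shallow libraries were listed in a deep library too, in ZBTB20 and elsewhere. The shallow lists held 66 distinct ZBTB20 positions, of which 58 (87.9%) were also listed in a deep library, against 76.8% of their 63975 positions elsewhere. By group this was 24 of 29 positions in short_PB, 18 of 18 for short_hyPB, 8 of 8 for sym_rePB, 11 of 12 for sym_rehyPB and 15 of 17 for WT_PBat. Of the 68 position and strand pairs, 53 had a deep peak on the same strand. Among the shallow groups themselves, 10 positions were in 2 or more groups and 5 in 3 or more.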

How the data were processed

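The authors deposited 1 peak list per library, without a header, with start, end, strand, summed coverage and highest coverage (height) per peak. These signal values are coverage as deposited by the authors and do not appear scaled to depth. Per the submitters' processing notes, cutadapt 3.4, HISAT2 2.2.1.0 and the builds hg38 and GRCh38.p5 were used. The peak caller and any removal of duplicates are not given in the sources used here. A constant last column was taken as the file total, which no source states.

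A position was the 5′ edge of a peak, taken 3 bases lower for minus-strand peaks, which gives peaks of either strand at 1 TTAA the same coordinate. It was counted once per library. An insertion was a position and a strand. Genes and starts came from RefSeq (GRCh38.p14). Effects were differences of group means over 2 pairs of groups, tested with two-sided exact permutations within pairs, and ZBTB20 was set against the rest of the genome and the flanks with exact sign-flip permutations over 12 libraries. For recurrence that comparison is described without its test, since the gene was chosen by its number of positions. Adjustment was by Benjamini-Hochberg over 8 effects, 6 comparisons with the surroundings and 4 tests between backgrounds, with a threshold of 0.05. Python 3.11.15 with numpy 2.4.6, pandas 2.3.3 and scipy 1.17.1 was used, and the permutation code was tested on simulated data.

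Genes were named by a rule. It took coding genes over the flanks and, from the BTB zinc-finger list made by symbol, the 5 others with most WT_PB positions. It also took the 5 genes most correlated over the 9 groups. Those came from genes with a mean of at least 20 positions per library in each deep group and 1 in each shallow group. Positions were named if listed in most libraries or highest in a group. The members, lists and tests were chosen with earlier results of these data known. Reads carry no molecular identifiers and were PCR amplified, so intervals cover counting error only. Alternatives were a minimum height of 10, thinning to the smallest file total, linked libraries averaged, each replicate number left out, a replicate block, 4 group means, another gene portion, merged positions and the added comparisons named as such.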

Additional observations from a re-analysis of the deposited data

How the results depend on the processing

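Orientation against the rest of the genome and the flanks, and height against the flanks, kept direction and side of the threshold with a minimum height of 10, thinning, linked libraries averaged and each replicate number left out (height against the rest of the genome passed in none). The recurrence differences kept their direction in these settings where they were computed, which was not done without replicate 3. Over the 4 group means, orientation (5.11 and 7.04) and height against the flanks (0.080) reached only p = 0.125 by exact permutation (adjusted p = 0.15), the smallest possible, and recurrence differed by 12.8 and 17.8 points. Against other minus-strand genes orientation turned to -8.996 points. With a minimum height of 10 the hyperactive effect was -2.49 on the start-side share (exact permutation, adjusted p = 0.09) and -1.07 on recurrence (adjusted p = 0.274), and the re-engineering effect on orientation turned to -0.040. With the third of the gene nearest the outermost start the start-side effects were -1.56 and -1.95. As log2 ratios the recurrence effects were -0.14 and -0.013, and with linked pairs kept re-engineering gave -2.96.

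Deviations of same-numbered replicates from their group means had mean correlations of 0.20, 0.04 and -0.09 for replicates 1, 2 and 3. These rest on 4 measures only, so they cannot show whether same-numbered libraries belong together. The main effect tests used no pairing. With a replicate block the hyperactive effects on start-side share and recurrence were -2.49 and -2.81 (exact permutation, adjusted p = 0.0625 and 0.10), and the re-engineering effects on start-side share, height and recurrence -4.27, -0.089 and -4.67 (adjusted p = 0.0625 each), where the smallest p is 0.03125. Without 1 replicate number the hyperactive effects ran from -3.55 to -0.64 (start-side share) and from -2.38 to -1.75 (recurrence), and the re-engineering effects from -4.74 to -3.80, -0.099 to -0.081 (height) and -4.74 to -4.07. With 2 replicates the smallest p is 0.0556. Recurrence without replicate 3 could not be computed for WT_hyPB, whose remaining pair is linked. A minimum height of 10 moved the level per 10000 to 2.44 for short_hyPB, 5.43 for sym_rehyPB, 7.97 for short_PB, 17.4 for WT_PB and 18.1 for WT_hyPB, and counting position and strand moved WT_PB to 17.7. Shallow libraries, with 1 to 12 positions each, limit every value given for them.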
